A study of Gallus gallus with 4 samples.

Results

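The monooxygenase genes of the chicken ovary, cytochrome P450 enzymes among them, were followed through comparisons of an older with a younger age in 2 sub-breeds of Ningdu Yellow chicken. The genes were taken as all those listed under the gene ontology (GO) term monooxygenase activity, whatever their expression. This gave 79 of the 17934 genes of the GO population, and the tables of both sub-breeds held the same 79.

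In the sub-breed with early sexual maturity, 103 day old laying hens (P-F-O2) were compared with 32 day old pre-laying hens (P-F-O1). In the sub-breed with late sexual maturity, 153 day old hens (L-F-O2) were compared with 32 day old pre-laying hens (L-F-O1). The sources differ on whether the L-F-O2 hens were laying, so only their age is used. All 4 groups were of the same breed and differed in sub-breed and age, and all were caged with free access to feed and water. Each library was an equal mix of ovary RNA from several hens, so there was 1 library per group and none of the differences has a replicate check. In whole ovary RNA, a change in the number of cells of a type and a change of RNA per cell cannot be told apart. Below, early hens and late hens stand for the comparison within each sub-breed, P-F-O2 with P-F-O1 and L-F-O2 with L-F-O1.

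The deposited tables name the genes that the authors called differentially expressed between the ages. The criterion was a fold change together with a minimum expression, or a p-value. They hold no count or expression value of any library and no direction of change. The depth behind each call is therefore unknown from these tables, and they give no levels by which ovary cell type markers could be checked. The paper reports more mapped reads, at a lower mapped percentage, for the older library of each sub-breed than for the younger. Sequencing depth and age thus cannot be told apart. A gene is described below as called or not called in a sub-breed, and "called" says only that it passed the criterion between the older and the younger library. A gene not called need not have been detected in the ovary.

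Monooxygenases insert 1 atom of molecular oxygen into a substrate. The cytochrome P450 enzymes do so with a heme group, the flavin-containing enzymes with a flavin nucleotide, and several hydroxylases with copper or non-heme iron. In the ovary, P450 enzymes carry out steps of steroid hormone synthesis, from the cleavage of cholesterol to androgens and estrogens. Other members break down retinoic acid, activate vitamin D or clear foreign compounds.

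Of the 79 monooxygenase genes, 43 were called in early hens, or 54.4% (95% Wilson interval 43.5 to 65.0%, with genes as units). The background was 28.1%, the share called among all 17934 population genes. In late hens 34 were called, or 43.0% (32.7 to 54.0%), against a background of 23.2%. In both sub-breeds the share of monooxygenase genes called was above that of all genes. The term was picked from the authors' enrichment results on these same calls, which do not list every GO term. A share unlike the background may thus follow from the choice of the term and is no separate finding. These intervals reflect the number of genes alone, not hens or libraries, and genes of 1 family are not independent of each other.

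The shares were also set beside those of related enzyme lists. Among the 4295 genes with catalytic activity that are not monooxygenases, 24.0% were called in early hens and 19.2% in late hens, below the share of all genes. The term for oxidoreductases that act on paired donors with molecular oxygen overlaps with the monooxygenase term and holds 77 of the 79. Its other 66 genes were called in 36.4% of cases in early hens and 27.3% in late hens. The 85 heme-binding genes that are not monooxygenases had 37.6% and 29.4% called in early and late hens. The shares of monooxygenase genes lay above those of both lists in each sub-breed, but the 95% intervals overlapped, and the lists were not tested against each other.

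**Figure D1:**
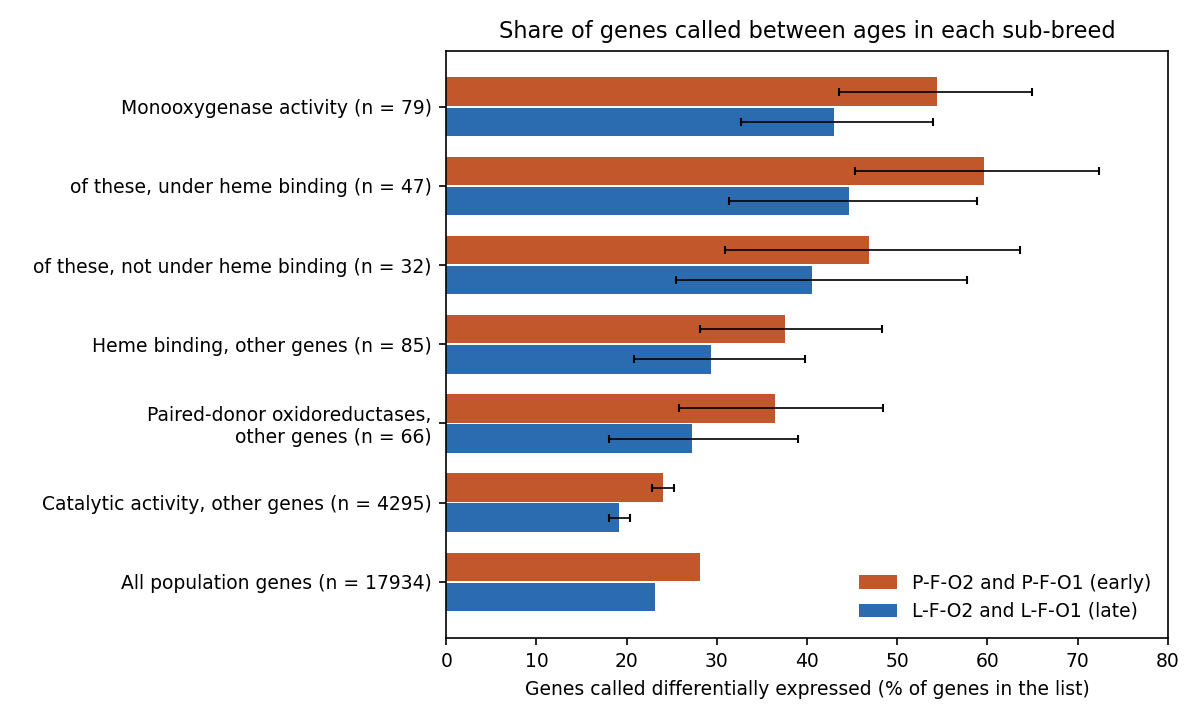
Share of genes that the authors called differentially expressed between ages (x axis, percent) in 7 gene lists (y axis), with early hens above late hens in each pair of bars. Error bars are 95% Wilson intervals with genes as units, drawn for every list except all population genes. The bars of monooxygenase activity reach 54.4% and 43.0%, against 28.1% and 23.2% for all genes.

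Most calls were common to the sub-breeds. Of the monooxygenase genes, 31 were called in both, 12 in early hens alone, 3 in late hens alone and 33 in neither. The 31 genes were 39.2% of the 79, where 17.8% of the 11420 genes named in both tables were called in both. They made up 72.1% of the monooxygenase genes called in early hens and 91.2% of those called in late hens. Over all genes named in both tables, the same shares were 63.7% and 79.3%. The paired-donor oxidoreductases outside the group had shares of 70.8% and 94.4%, close to those of the monooxygenase genes. The sub-breeds share no library, but in each the older birds are set against birds of 32 days. Since the lists give no direction, a gene called in both need not have changed in the same way.

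**Figure D2:**
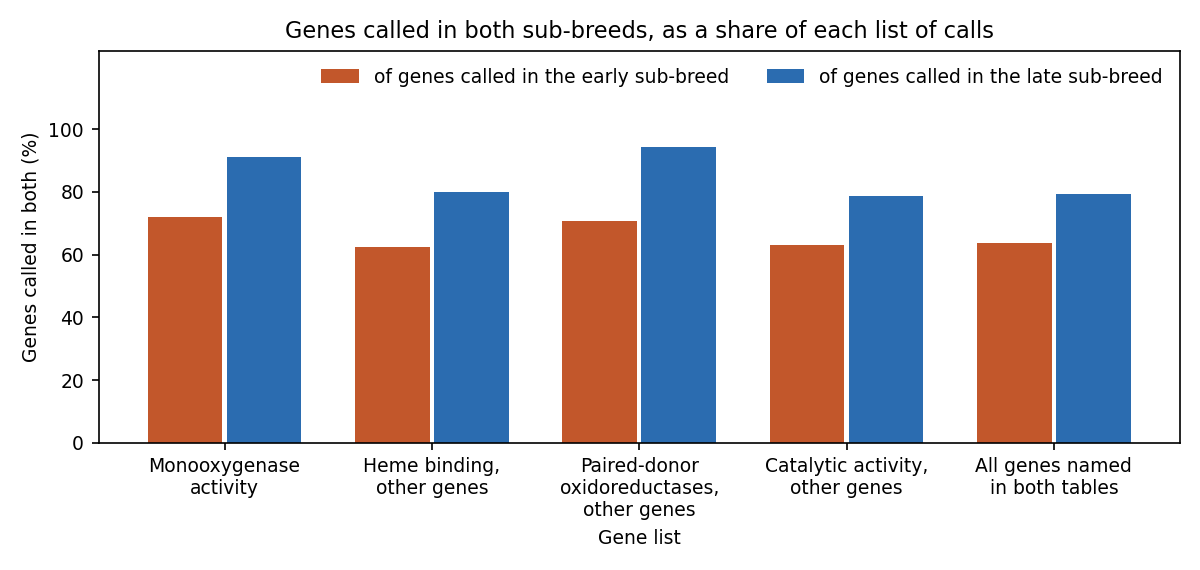
Genes called in both sub-breeds as a percentage (y axis) of the genes called in early hens (left bar) and of those called in late hens (right bar), for 5 gene lists (x axis). The bars of monooxygenase activity stand at 72.1% and 91.2%, near those of the other paired-donor oxidoreductases at 70.8% and 94.4%.

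The identifiers of 19 monooxygenase genes could be paired with a name and that of 1 more with a description. The names came from a part of the study's gene list whose genes were all called in early hens. All 20 were thus called there by the way they were named, and their share says nothing about the other 59 genes. Of the 20, 19 were also called in late hens, with CYP1A1 as the exception. Only 39 monooxygenase genes lie up to the last identifier of that part of the gene list, so those beyond it could not be named. Of the 39, 25 were called in early hens, and 5 of these had no entry and thus no name. Among the 5, all but ENSGALG00000008178 were called in early hens alone. The 19 of 20 leaves these out and does not show that the named enzymes were more often shared between the sub-breeds. Of all 1474 genes of this gene list whose status was known in both sub-breeds, 63.8% were also called in late hens. Of the 59 genes without a name, 23 were called in early hens and 15 in late hens, 12 of them in both. Their shares were 39.0% (27.6 to 51.7%, 95% Wilson interval) in early hens and 25.4% (16.1 to 37.8%) in late hens, and both intervals held the background of all genes (28.1% and 23.2%). Since the 20 genes taken away were all called in early hens, the shares of the remaining 59 are lowered by that choice, and no such genes were taken from the background.

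Enzymes that act on sterols and steroids were among the genes called in both sub-breeds. Here and below, the call of a named gene in early hens was fixed by how the names were obtained. Of the 1474 genes of that gene list with a known status in both sub-breeds, 63.8% were also called in late hens. CYP17A1 (ENSGALG00000008121), the 17-alpha-hydroxylase and 17,20-lyase that turns progestins into androgens in ovarian steroid synthesis, was called in both. CH25H (ENSGALG00000006352), which makes 25-hydroxycholesterol, was called in both as well. So was CYP2R1 (ENSGALG00000006050), a vitamin D 25-hydroxylase. The names used here do not include the cholesterol side-chain cleavage enzyme or aromatase. If these enzymes are among the 59 genes without a name, their calls are counted there, but no call was traced to either enzyme.

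Both enzymes of retinoid metabolism that carried a name were called in each sub-breed, the call in early hens being fixed by how names were obtained. BCMO1 (ENSGALG00000005408, BCO1 in RefSeq) cleaves beta-carotene into retinal, and CYP26A1 (ENSGALG00000006729) degrades retinoic acid. They thus act at the start and at the end of the pathway. CYP26A1 was also listed under developmental process, together with 8 other monooxygenase genes. Of these 9, 5 were called in early hens and 5 in late hens, 4 of them in both. The other 1724 genes of the row had 33.2% and 30.2% called in early and late hens, above the shares of all genes.

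The P450 enzymes known mainly for the oxidation of drugs and other foreign compounds belonged to families 1 to 3. CYP1A4 (ENSGALG00000001325), CYP2C45 (ENSGALG00000005469), CYP2H1 (ENSGALG00000005795), CYP3A4 (ENSGALG00000004436) and CYP3A7 (ENSGALG00000004449) were called in both sub-breeds. A gene described as cytochrome P450 2J2-like (ENSGALG00000008283) was also called in both. In mammals, CYP2J2 is known for the epoxidation of arachidonic acid. CYP1A1 (ENSGALG00000001320) was called in early hens and not in the late one. That a gene passed the criterion in one sub-breed alone does not show that its change differed between them, and no test of that difference could be made from lists.

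Several of these names need care. CYP1A1 is described in the gene list as cytochrome P450 1A5, and its accession belongs to the gene that RefSeq calls CYP1A2, whereas that of CYP1A4 belongs to RefSeq's CYP1A1. These 2 genes are direct neighbours in the GRCg7b annotation, as are CYP3A4 and CYP3A7. RefSeq calls CYP3A7 CYP3A5. How reads were divided between such related copies is not given in the sources used here, so the calls of these 4 genes are uncertain as to which copy they concern. In total, 7 of the 19 names had another symbol in RefSeq, CYP2C45 (CYP2C18) and CYP2H1 (CYP2C23a) included. CYP3A4, CH25H, CYP2C45 and the 2J2-like gene are described in the gene list as uncharacterized proteins.

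Some of the other named enzymes are not P450 enzymes. NOS1 (ENSGALG00000008177) and NOS2 (ENSGALG00000005693), the neuronal and the inducible synthase that make nitric oxide from arginine, were called in both. DBH (ENSGALG00000002926), a copper enzyme that converts dopamine into noradrenaline, was called in both too.

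In contrast, 4 of the named genes did not have the name of a monooxygenase, although the term held them. PCBD2 (ENSGALG00000006367) is a dehydratase that recycles the pterin cofactor of aromatic amino acid hydroxylases. TMEM121 (ENSGALG00000002756) is described as a transmembrane protein, KBTBD12 (ENSGALG00000005972) as a protein with kelch repeats and a BTB domain, and CDK5RAP2 (ENSGALG00000006971) as a regulatory subunit-associated protein of CDK5, known for its place at the centrosome. All 4 were called in both sub-breeds, the call in early hens being fixed by how names were obtained. In the gene list that gave the names, 63.8% of the 1474 genes with a known status in both were also called in late hens. Without the 4 genes, 39 of 75 genes were called in early hens and 30 of 75 in late hens. Among all genes, 28.1% and 23.2% were called.

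**Figure D3:**
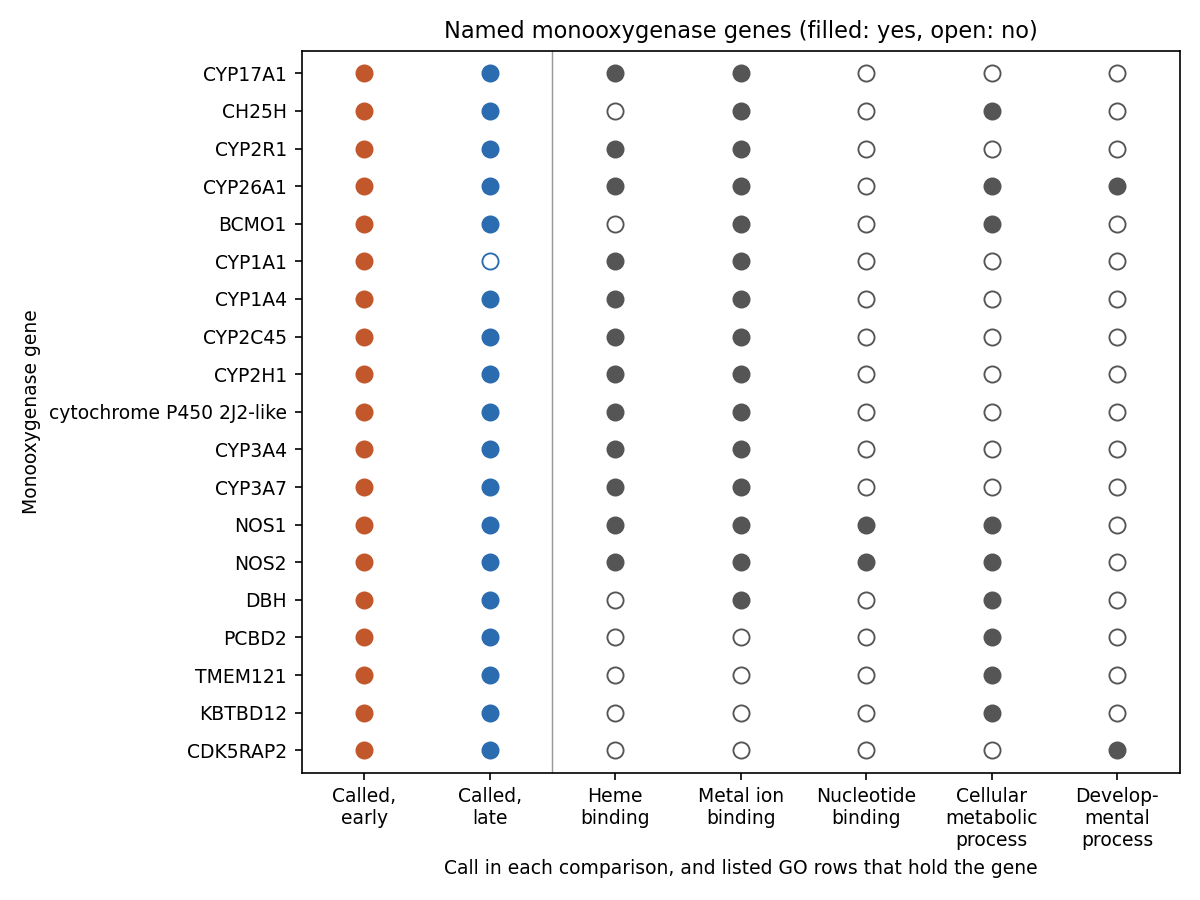
Monooxygenase genes with a name or description (19 of the 20, y axis), with filled circles where the gene was called in early or late hens (first and second column) or stood under a listed GO row (other columns, x axis), and open circles where it did not. CYP1A1 is the one gene with an open circle for late hens, and 12 of the 19 stand under heme binding.

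What the genes share beyond the term was read from the other GO rows that hold them. By binding, the 79 genes fell into 5 kinds. The heme and metal ion rows, like the paired-donor row above, are listed for early hens alone. Whether their genes were called in late hens was read from other rows. Heme binding without nucleotide binding, the annotation of P450 enzymes such as CYP17A1, was the largest with 45 genes. Of these, 26 (57.8%) were called in early hens and 19 (42.2%) in late hens, 18 of them in both. The shares of all genes were 28.1% and 23.2%. Heme and nucleotide binding together were found for NOS1 and NOS2 alone, which carry a reductase domain beside their heme domain. A further 8 genes had nucleotide binding without heme, as flavin enzymes do. Of these, 3 (37.5%) were called in early hens and 1 (12.5%) in late hens, the second share being below the 23.2% of all genes.

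Metal ion binding without heme or nucleotide binding was found for 14 genes, DBH, CH25H and BCMO1 among them. Of these, 7 (50%) were called in early hens and 8 (57.1%) in late hens, 6 of them in both. Other genes under metal ion binding whose status was known had 31.3% and 25.5% called. The last 10 genes had none of the 3 annotations, and the 4 genes with names of another kind were all among them. Of these 10, 5 (50%) were called in early hens and 4 (40%) in late hens. The shares of all genes were 28.1% in early hens and 23.2% in late hens. Counts of 14 and 10 genes give the shares of these kinds only roughly.

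**Figure D4:**
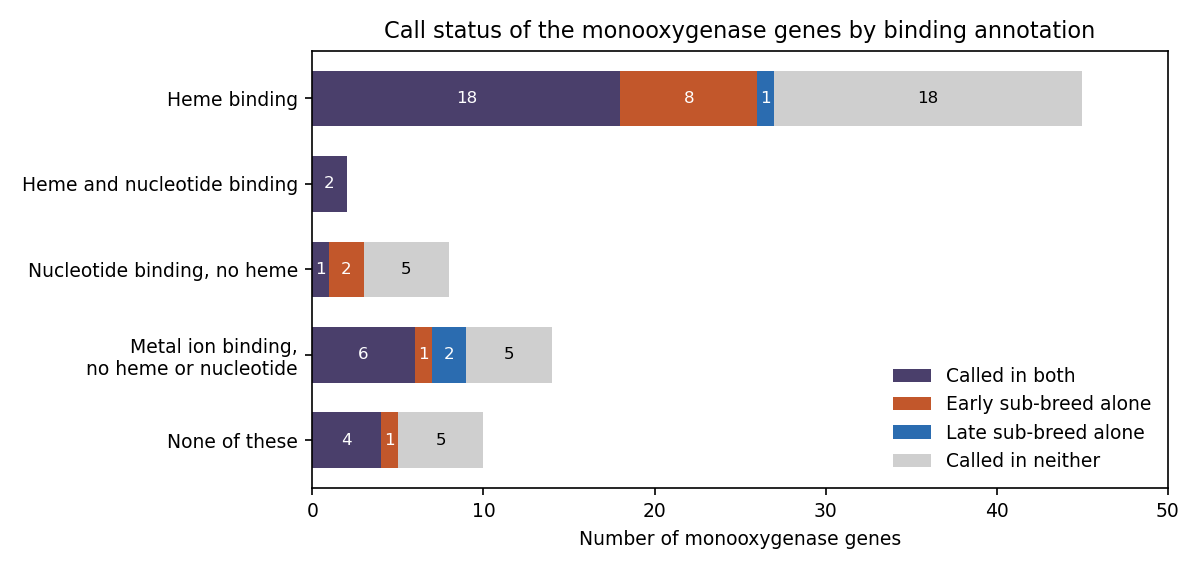
Number of monooxygenase genes (x axis) of each kind of binding annotation (y axis), divided into genes called in both sub-breeds, in early hens alone, in late hens alone and in neither. Of the 45 heme-binding genes in the top bar, 18 were called in both, 8 in early hens alone, 1 in late hens alone and 18 in neither.

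All 47 heme-binding monooxygenase genes, NOS1 and NOS2 included, had 59.6% called in early hens (45.3 to 72.4%, 95% Wilson interval) and 44.7% in late hens (31.4 to 58.8%). The 32 monooxygenase genes without heme binding had 46.9% (30.9 to 63.6%) and 40.6% (25.5 to 57.7%) called. The intervals of heme-binding and other members overlapped in both sub-breeds. Of the 12 genes called in early hens alone, 8 were heme-binding, and of the 3 called in late hens alone, 1 was. Heme-binding genes made up 59.5% of all monooxygenase genes, called or not. Counts this small do not show that heme-binding genes were more often called in one sub-breed alone.

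Many of the heme-binding genes could not be told apart by their annotation. The same 8 rows held 35 of the 79 genes, and these rows name no pathway or process. CYP17A1 and CYP2R1 were among the 35, together with CYP1A1, CYP1A4, CYP2C45, CYP2H1, CYP3A4, CYP3A7 and the 2J2-like gene. Of the 35, 22 (62.9%) were called in early hens and 15 (42.9%) in late hens, 14 of them in both. The shares of all genes were 28.1% and 23.2%. The other 26 genes of this profile have no name here. ENSGALG00000008178, one of them, was called in both sub-breeds, and so was ENSGALG00000010198, an unnamed gene without heme binding.

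At the other extreme, NOS1 stood under 44 of the listed rows and NOS2 under 40. NOS2 was the one monooxygenase gene under defense response, and NOS1 the one under plasma membrane. Both were listed under response to chemical stimulus with CYP26A1 and 4 genes without a name. Of these 7 genes, 4 were called in each sub-breed, 3 of them in both. This row is listed for late hens alone, and calls in early hens were read from other rows. Of its 892 other genes, 884 had a known status in early hens, and 31.6% of these were called. In late hens 28.9% of the 892 were called.

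By location, 6 monooxygenase genes stood under mitochondrion, some of them without heme binding. Of these, 3 were called in early hens and 2 in late hens. PCBD2, which is not listed under heme binding, was called in both. The other 900 genes under mitochondrion had 15.8% and 10.9% called in early and late hens. With 6 genes, the share of mitochondrial monooxygenases is known only roughly. Endoplasmic reticulum part held 4 genes, all among the 8 genes above with nucleotide binding and no heme binding. Of these 4, 2 (50%) were called in early hens and 1 (25.0%) in late hens. The shares of all genes were 28.1% and 23.2%, the second being near that of the 4 genes. Membrane held 9 monooxygenase genes, of which 6 were called in each sub-breed, 4 of them in both. The other 2727 membrane genes had 32.3% and 26.3% called in early and late hens. These numbers by location follow the listed annotation and do not show where the enzymes lie. The 35 genes with the same 8 rows, CYP17A1 included, stood under none of these location rows.

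Of the related lists, hormone activity held none of the 79 genes. The rows for steroid, lipid and xenobiotic processes and for iron binding are not among the listed terms. They were not analysed here.

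In the authors' pathway tables (Kyoto Encyclopedia of Genes and Genomes, KEGG), the monooxygenase genes were hardly present. CYP1A1 was the one member named, in early hens, under tryptophan metabolism (4 of 5 background genes called), steroid hormone biosynthesis (3 of 5) and metabolic pathways (33 of 133). In late hens, tryptophan metabolism had 2 of 5 genes called and steroid hormone biosynthesis 2 of 5, none of them a monooxygenase gene of the term. CYP17A1, called in both sub-breeds, stood in no pathway list, steroid hormone biosynthesis included. Of the 156 identifiers in the pathway lists of early hens, 151 were numbered below ENSGALG00000003000, and of the 132 in late hens 128 were. Among the genes called in the GO tables, 14.5% and 13.9% had such low numbers in early and late hens, and among the 79 monooxygenase genes 8 did. The pathway lists thus named almost none of the numbers in which most monooxygenase genes lie. Whether the background numbers were limited in the same way is not given. The counts above, such as 3 of 5, therefore need not be shares of whole pathways. The absence of CYP17A1 and the other members with higher numbers cannot be read as a result about these genes. Of the 8 members with low numbers, 5 were called in early hens and 3 in late hens. Among all genes, 28.1% and 23.2% were called. The early calls of CYP1A1, CYP1A4, TMEM121 and DBH, which are among the 8, were fixed by how names were obtained. CYP1A4, TMEM121 and DBH were called in both and yet stood in no pathway list. Why these were absent was not tested.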

How the data were processed

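Ovary RNA of 4 pooled libraries was sequenced. Per the labels and the study's methods, the authors used SeqPrep and Sickle for trimming, TopHat with galGal4 for alignment and Cuffdiff for the calls on FPKM. Enrichment was theirs too, by Goatools (GO) and KOBAS (KEGG). Versions are not given in the sources used here. The deposited tables give, per term or pathway, numbers and identifiers of called and of all genes. Their p-value columns hold the authors' enrichment tests and were not used.

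The other kind of values in the deposited tables is thus gene numbers and lists. In the late hens' GO table, 44 broken identifiers were each completed from the 1 intact identifier that fitted, after which 0 lists differed from their deposited length. The step was tested on simulated data. A gene was called if any row of a table listed it so, and no member was without a status. No test was made, since there was 1 library per group. Wilson intervals were calculated with SciPy 1.17.1 in Python 3.11.15.

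Names came from the part of the study's gene list used here (1947 identifiers) and were matched to RefSeq (GRCg7b) by accession (9), symbol (8) or synonym (2). No identifier matched directly, and no coordinates were taken. Every member with a name or description is named, except 1 that is not reported here, and the first 2 without one that were called in both sub-breeds. Members and lists were chosen with earlier results of these data known. A planned search of protein sequences was not made.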

Additional observations from a re-analysis of the deposited data

How the results depend on the processing

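The numbers of monooxygenase genes called (43 in early hens, 34 in late hens and 31 in both) were the same with the gene lists of the monooxygenase row alone, with broken identifiers dropped and with rows of molecular function alone. Without the names of another kind they were 39, 30 and 27. Without the 4 genes that neighbour another named member, a choice made after seeing the data, 28 were called in both. They fell, since fewer genes were counted, to 28, 21 and 20 of the 47 heme-binding genes and to 19, 18 and 18 of the 19 genes with a name. The background share of early hens (28.1%) was 28.0% over genes named by identifier, 28.4% over molecular function rows and 24.0% over other catalytic genes. That of late hens (23.2%) was 22.1%, 23.2% and 19.2%. Under each of these backgrounds the share of all 79 genes called stayed higher. Since the term was picked from enrichment results on the same calls, this is no independent check. No paired analysis was possible because the tables hold no value per library and each group had 1 library. With no counts, what depth limits could not be examined.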
